A study of Mus musculus with 10 samples.

Results

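The regions described here are stretches of open chromatin in the neonatal mouse cochlea that were called at postnatal day 2 (P2) and again at day 8 (P8), but not at day 5 (P5) between them. Peaks of the 3 ages sharing 1 bp or more were joined, which gave 64911 regions, and a region was kept where it held a P2 peak and a P8 peak and no P5 peak. Such regions numbered 2256, or 3.48% of all regions. Of the 34937 regions called at both P2 and P8, 6.46% were not called at P5. The same gap at P8, in regions called at P2 and P5, took 17.0% of 39371 regions, and the gap at P2, in regions called at P5 and P8, took 11.0% of 36720. The members were therefore chosen by the calls themselves, which rest on the authors' peak values. Their ranks and the absence at P5 are given as a description with no test, while gene positions and promoter sequence were not used in the choice.

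The data came from ATAC-seq, in which a transposase cuts open chromatin and leaves sequencing adapters there, on whole cochleae of CD1 mice, an outbred stock. There were 3 animals aged 2 days, 3 aged 5 days and 4 aged 8 days. Both cochleae of an animal were combined, no treatment or engineered allele is named for any group, and nuclei were not sorted by cell type. The study concerns delivery of GJB2, a gene of cochlear gap junctions, and the mapping was meant to find regulatory elements used in development. A single peak list represents each age (P2 52085 peaks, P5 47683 and P8 43878), so no spread between animals can be given and no p-value was computed. All peaks were 499 bp wide, and the weakest peak kept had a −log10 p-value, as the authors give it, of 19.5 in the P2 list, 13.5 in the P5 list and 11.4 in the P8 list. The depth of each library is unknown from these lists. In whole tissue, fewer cells with an open region and less opening per cell cannot be told apart.

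Open regions at gene starts are promoters, where transcription begins, and are often open in many cell types. Regions farther away include enhancers, which are more often open in particular cell types and developmental windows. In the cochlea, the first postnatal week precedes the onset of hearing and is a time when the sensory epithelium, the stria vascularis and the glia of the auditory nerve mature. A peak call is a threshold: a region without a P5 call may still have held reads at P5 below the threshold, and the lists do not show them.

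Members near the top of both lists included promoters. The lists also give the start and end of each peak in both of the input lists that it was called from, and the stretch these cover is called the full-width input peak here. The sequences of 6 promoters are shown because, among members at promoters, those on them stood highest of those that no full-width P5 input peak overlapped. Each is the 150 bases before the annotated start of the gene, from RefSeq on GRCm38.p6, 5′ to 3′ on the strand of the gene. They are Nudt5 (chr2:5844884-5845033, plus strand), Cdc123 (chr2:5845178-5845327, minus strand), Mpnd (chr17:56009051-56009200, plus strand), H1f4 (chr13:23622559-23622708, minus strand), Uty (chrY:1245760-1245909, minus strand) and Ddx3y (chrY:1286614-1286763, minus strand). In the first 4, capitals mark matches on either strand to the CCAAT box (CCAAT), the GC box (GGGCGG), the TATA box (TATAAA), an AP-1 site (TGANTCA) or a CRE (TGACGTCA). In the last pair, capitals mark the longest run of letters that both share.
Nudt5: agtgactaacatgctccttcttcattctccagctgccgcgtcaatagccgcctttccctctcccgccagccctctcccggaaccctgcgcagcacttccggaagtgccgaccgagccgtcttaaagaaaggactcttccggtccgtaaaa
Cdc123: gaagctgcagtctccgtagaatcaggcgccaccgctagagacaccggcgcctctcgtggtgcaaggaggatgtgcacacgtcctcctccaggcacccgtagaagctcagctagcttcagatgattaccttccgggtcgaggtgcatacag
Mpnd: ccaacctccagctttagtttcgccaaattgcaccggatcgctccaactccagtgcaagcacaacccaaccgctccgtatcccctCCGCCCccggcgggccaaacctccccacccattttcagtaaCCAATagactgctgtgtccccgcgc
H1f4: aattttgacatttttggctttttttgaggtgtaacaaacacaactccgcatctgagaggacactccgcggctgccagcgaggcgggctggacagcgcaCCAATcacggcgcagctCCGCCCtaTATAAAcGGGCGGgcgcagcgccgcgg
Uty: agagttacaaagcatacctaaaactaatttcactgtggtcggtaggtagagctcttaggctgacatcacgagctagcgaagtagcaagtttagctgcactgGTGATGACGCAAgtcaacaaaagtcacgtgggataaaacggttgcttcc
Ddx3y: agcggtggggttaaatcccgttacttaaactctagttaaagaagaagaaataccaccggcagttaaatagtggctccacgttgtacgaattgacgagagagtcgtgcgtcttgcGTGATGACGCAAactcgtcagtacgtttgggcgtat
Nudt5 and Cdc123 start from opposite strands within 1 member, and neither stretch held any of the 5 motifs. H1f4, which encodes a linker histone, held 4 matches, to the CCAAT, GC and TATA boxes. Uty and Ddx3y shared the 12-base run GTGATGACGCAA, which began 49 bases before the start of Uty and 36 bases before that of Ddx3y. That run was present on either strand in 8 of 32851 promoter windows (0.0244%). It was looked for after these sequences had been seen, and it is a description of letters, not a site.

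The member over the shared start of Nudt5, a hydrolase of ADP-ribose compounds, and Cdc123, which helps assemble a translation initiation factor, was the clearest case of a strong call with nothing near it at P5. It spanned chr2:5845003-5845501, and its value was 339 at P2 (rank 4188) and 119 at P8 (rank 4584). These ranks correspond to percentiles of 92.0 and 89.6, where a percentile is the share of the other peaks in the list with a lower value. The nearest P5 peak lay 49652 bp away, and no full-width P5 input peak reached the region. At H1f4, the member at chr13:23622302-23622804 stood at percentiles of 85.1 and 84.6, and a P5 peak lay 792 bp away.

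Chromosome Y held 4 members among only 5 regions called at P2 and P8 (80.0%, 95% Wilson interval 37.6% to 96.4%). On the other chromosomes the share not called at P5 ran from 4.96% on chromosome 7 to 7.58% on chromosome 10. All intervals given here are Wilson intervals, and they cover counting error only. Where a count is 0, the limit given is instead the share that 3 counts would make. The 4 members lay by genes of the male-specific short arm. The member at the start of Uty, a relative of a histone demethylase, was at chrY:1245530-1246047 with percentiles of 81.9 at P2 and 84.8 at P8. At the start of Ddx3y, an RNA helicase, the member at chrY:1286381-1286879 had percentiles of 80.6 and 82.2. The member at chrY:808948-809446, 9415 bp from Uba1y, a ubiquitin-activating enzyme, had percentiles of 81.1 and 78.2. Eif2s3y, which encodes a subunit of a translation initiation factor, had a member at its start (chrY:1010054-1010800) with percentiles of 22.5 and 66.8.

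Another region on this arm, at chrY:872833-873331 by Kdm5d, was called at P2 alone, at a percentile of 11.4. The P5 list held 7 peaks on chromosome Y, against 9 at P2 and 5 at P8, and all 7 lay near Gm52481 at the far end of the chromosome, in regions from chrY:90739853-90740680 to chrY:90784775-90785273. None lay on the short arm, so the nearest P5 peak to these members was 89452973 bp away or farther. The only chromosome Y region called at all 3 ages, at chrY:90744091-90744635, also lay at the far end, by Gm52481. X-linked relatives gave a different picture. A region within 1 kb of a gene end of Ddx3x, Eif2s3x, Uba1, Kdm5c and Usp9x was called at all 3 ages. The P5 percentile was 88.5 at Ddx3x, 87.4 at Eif2s3x, 77.7 at Uba1, 96.3 at Kdm5c and 83.7 at Usp9x. No region lay within 1 kb of an end of Kdm6a, the relative of Uty. These X-linked genes were chosen after the chromosome Y members had been seen. The labels name no sex for any animal, and the make-up of the lists by sex was not tested.

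High ranks in both lists were rare among the members. Only 47 members (2.08%) stood in the upper 50% of both the P2 and the P8 list, against 56.0% of the 32681 regions called at all 3 ages. Of these 47, 20 had a P5 peak within 500 bp (42.6%, interval 29.5% to 56.7%), 25 had one within 1000 bp, and 21 were overlapped by a full-width P5 input peak. The remaining 22 had no P5 peak within 1000 bp, and 3 of the 47 were the Uty, Ddx3y and Uba1y members on chromosome Y.

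**Figure D1:**
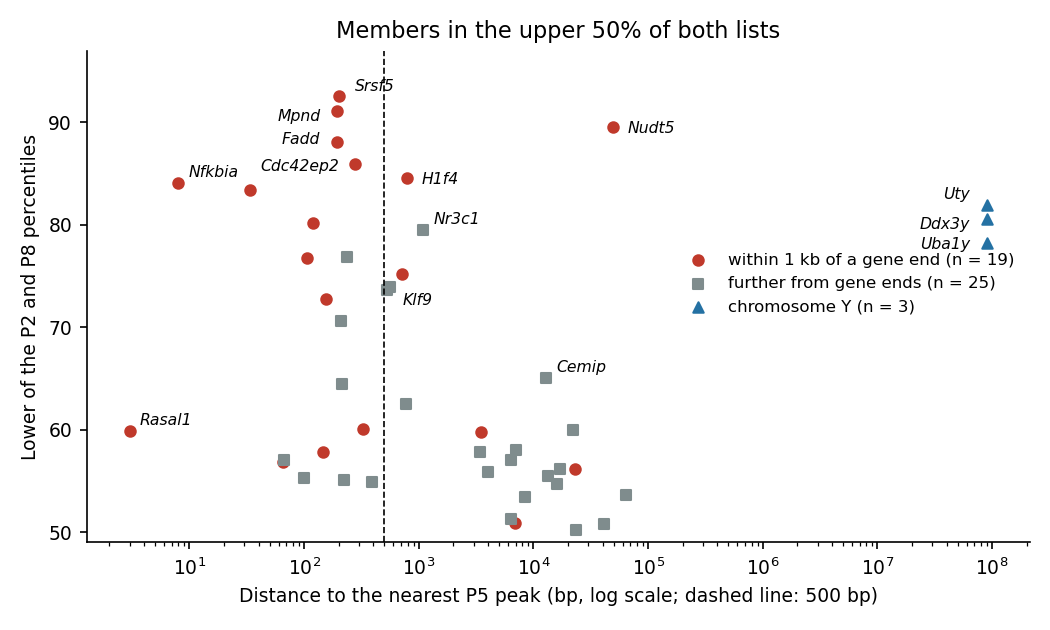
Each point is 1 of the 47 members in the upper 50% of both lists, with the distance to the nearest P5 peak on a log scale across and the lower of its P2 and P8 percentiles upwards; the dashed line marks 500 bp. Of these, 20 points lie left of the line, and the 3 chromosome Y points lie far to the right of all others.

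Of the 20 members of this upper class with a P5 peak within 500 bp, 13 lay within 1 kb of a gene end, and 21 of all 47 lay there. The highest member of all was at chr12:80945924-80946422 in Srsf5, a splicing factor of the SR family, with percentiles of 94.5 at P2 and 92.6 at P8. A P5 peak lay 200 bp from it. At the start of Mpnd, which encodes a protein with an MPN domain, percentiles were 92.2 and 91.2, with a P5 peak 195 bp away. The member at the start of Fadd, the adaptor of death receptors, had percentiles of 88.9 and 88.1 and a P5 peak at 192 bp.

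Cdc42ep2, an effector of the small GTPase Cdc42, had percentiles of 85.9 and 86.0, with a P5 peak 280 bp away. In Nfkbia, which encodes an inhibitor of NF-kB, they were 84.1 and 88.4, and the P5 peak began 8 bp from the region. At Zfp335, a zinc finger protein, they were 84.6 and 83.4, with the P5 peak at 34 bp. Full-width P5 input peaks overlapped the members at Srsf5, Fadd, Cdc42ep2, Nfkbia and Zfp335, but not the one at Mpnd. For these 5 members, the 499 bp P5 peak lay outside the region while the wider P5 input peak reached into it.

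Further strong members with no P5 peak within 500 bp included regions away from gene starts. In Nr3c1, the glucocorticoid receptor gene, a member at chr18:39489744-39490264 had percentiles of 84.1 and 79.5 and lay 1095 bp from a P5 peak, and a full-width P5 input peak overlapped it. Klf9 encodes a Krüppel-like factor that glucocorticoids and thyroid hormone induce. Its member at chr19:23135819-23136317 lay 5158 bp from the gene, with percentiles of 74.0 and 83.3 and a P5 peak at 561 bp. The member in Cemip, which takes part in the breakdown of hyaluronan, had percentiles of 65.0 and 74.5 and lay 12830 bp from a P5 peak. Nasp, a histone chaperone, had a member over its promoter with percentiles of 77.1 and 75.3 and a P5 peak at 714 bp, and N4bp2 had 82.9 and 73.7 with one at 526 bp. Full-width P5 input peaks overlapped both of the last-named members, but not those at Klf9 and Cemip.

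Most members stood low in the lists. Their median percentile was 26.0 at P2 (interquartile range 14.0 to 39.8) and 17.8 at P8 (8.18 to 30.9), against 67.8 and 61.6 for the regions called at all 3 ages. Of the 2256 members, 1900 lay in the lower 50% of both lists (84.2%, interval 82.7% to 85.7%), as did 20.3% of the regions called at all 3 ages. The lowest 10% of the P8 list held 30.7% of members and the lowest 10% of the P2 list held 17.9%. A stricter irreproducible discovery rate (IDR), a measure of how poorly a peak's rank repeats between 2 input lists, of at most 0.01 was met by 71.9% of members at P2 and 47.5% at P8. For regions called at all 3 ages those shares were 95.4% and 90.3%.

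**Figure D2:**
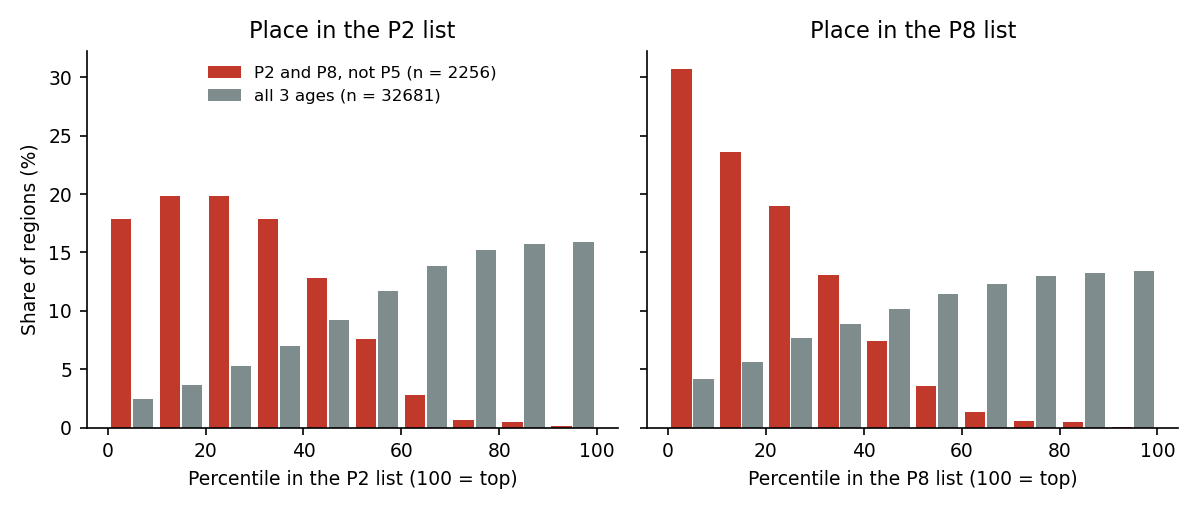
Bars give the share of regions in each bin of 10 percentile points of the P2 list (left) and the P8 list (right), for the 2256 members and the 32681 regions called at all 3 ages. The members pile up on the left of both panels, most of all at P8, where 30.7% are in the lowest bin.

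The share of regions missing at P5 was lower toward the top of the other lists. Regions were binned by the lower of their P2 and P8 percentiles. In the lowest bin (0 to 10), 31.3% of 3013 regions were not called at P5 (interval 29.7% to 33.0%). The share was 10.7% in the bin from 20 to 30, 2.15% from 40 to 50 and 0.0498% from 90 to 100, where 2 of 4020 regions were missing. It did not fall at every step: 4 of 3301 regions were missing from 60 to 70 (0.121%, interval 0.0471% to 0.311%) and 9 of 3613 from 70 to 80 (0.249%, interval 0.131% to 0.473%). The other ages gave the same kind of slope, with 56.3% missing at P8 in the lowest bin and 0.186% in the highest, and 36.7% and 0.0497% missing at P2. From 30 to 40 the shares missing were 5.90% at P5, 13.7% at P2 and 22.8% at P8. The bins of different ages rest on percentiles of different lists, so these values were set side by side without a test.

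**Figure D3:**
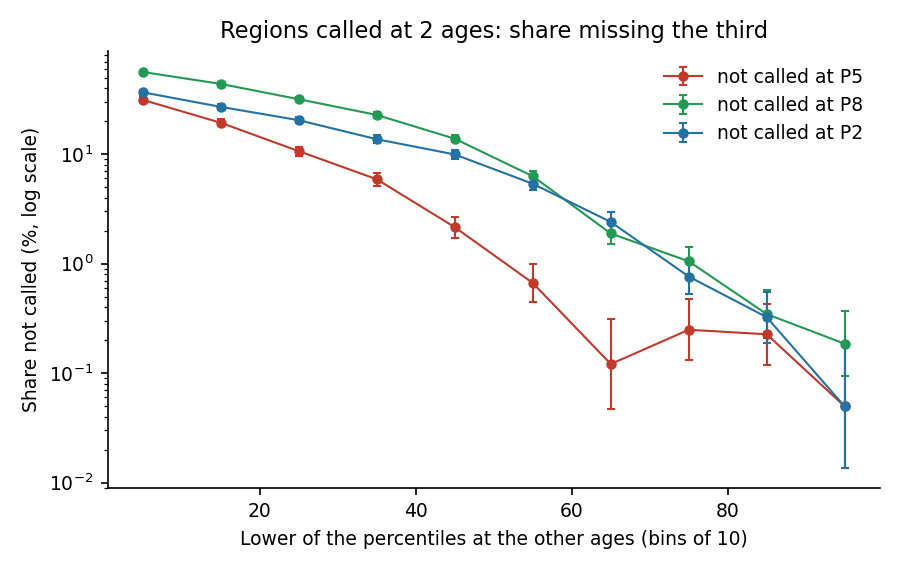
Lines give, for regions called at 2 ages, the share (log scale) not called at the remaining age, by bins of the lower percentile at the 2 calling ages, with 95% Wilson intervals. The P2 and P8 lines fall at every step and the P5 line at every step but the one into the bin from 70 to 80. The P5 line lies below the others in every bin but the highest, where it meets the P2 line.

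The P2 and P8 peaks of a member lay almost on top of each other. Of the 2256 members, 2248 held exactly 1 peak of each age. The P2 and P8 peaks overlapped by a median of 489 bp (interquartile range 460 to 496) of their 499 bp, close to the 492 bp in regions called at all 3 ages. The overlap was under 250 bp in 70 members (3.10%) and in 2.21% of regions called at all 3 ages. A higher percentile at P2 than at P8 was found in 64.9% of members and in 67.3% of regions called at all 3 ages.

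A P5 peak within 500 bp was uncommon over the whole set. It was found for 123 members (5.45%, interval 4.59% to 6.47%), and within 100 bp for 27 (1.20%). The share rose to 10.0% within 1000 bp, 32.5% within 5000 bp and 56.1% within 10000 bp, and the median distance to the nearest P5 peak was 8347.5 bp. Regions missing at P8 had a P8 peak within 500 bp in 5.02% of cases, and regions missing at P2 had a P2 peak there in 5.22%. Their median distances were 10903 and 10902 bp. Full-width P5 input peaks overlapped 67 members (2.97%).

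Nearness to a P5 peak differed with place in the lists. Among members whose lower percentile was under 10, 3.07% had a P5 peak within 500 bp, and the shares were 5.65% from 10 to 25, 6.25% from 25 to 50 and 42.6% above 50. In the upper class, regions missing at P8 had a neighbouring P8 peak in 22.3% of 381 cases (interval 18.4% to 26.8%), and regions missing at P2 had a P2 peak in 16.3% of 326 (12.6% to 20.7%).

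At the edge of the rule, members and regions called at all 3 ages differed by a few bases. The member by Nfatc1 lay 1 bp from a P5 peak, the one by Rasal1 3 bp, the one by Ubxn2b 6 bp and the one in Nfkbia 8 bp. On the other side, regions by Itgae and in Nkd1 counted as called at all 3 ages through 5 bp of overlap with a P5 peak each. Within 50 bp of the edge there were 17 members outside and 18 regions inside.

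Position relative to genes was not part of the rule. Of the members, 459 had their middle within 1 kb of either end of an annotated gene (20.3%, interval 18.7% to 22.1%). That share was 14.5% (13.7% to 15.3%) in regions missing at P8, 9.43% (8.57% to 10.4%) in regions missing at P2 and 37.4% (36.8% to 37.9%) in regions called at all 3 ages. The intervals of these 4 groups did not overlap. Regions called at P2 alone stood at 15.9%, those at P5 alone at 8.74% and those at P8 alone at 11.0%. Over all 64911 regions the share was 25.5%, above that of the members.

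The share near gene ends also depended on rank. With lower percentiles from 10 to 20 it was 19.1% in members (16.2% to 22.4%) and 15.7% in regions called at all 3 ages (14.4% to 17.2%). From 20 to 30 it was 21.7% and 15.7%. From 30 to 40 it was 21.5% of 205 members (16.4% to 27.6%) and 19.1%, a value within the member interval. From 40 to 50 it was 35.1% of 74 members (25.2% to 46.5%) and 19.7%. Above 50 the order turned, with 44.7% of 47 members (31.4% to 58.8%) and 53.2% of regions called at all 3 ages, and that member interval held the other value.

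**Figure D4:**
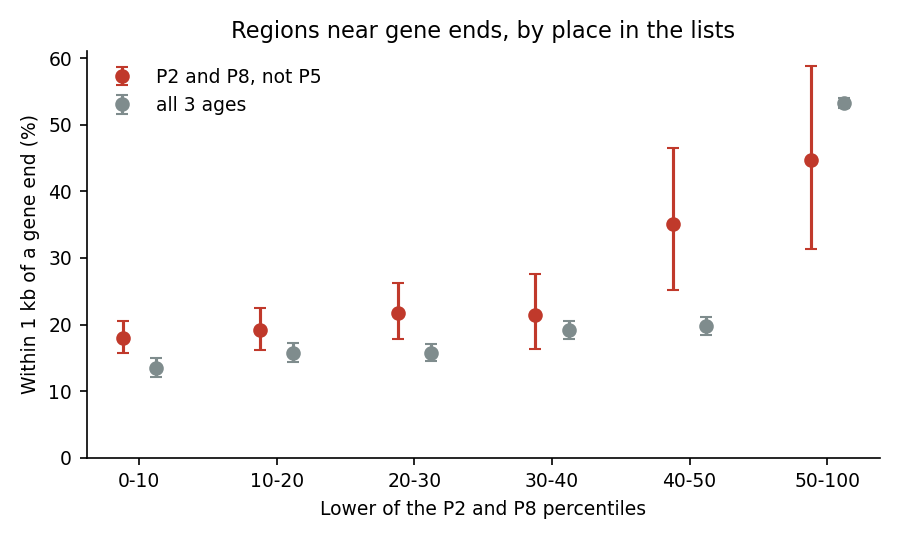
Points give the share of regions whose middle lies within 1 kb of a gene end, by classes of the lower of the P2 and P8 percentiles, with 95% Wilson intervals, for members and for regions called at all 3 ages. Members lie higher in the 5 classes below 50 and lower in the class above it.

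Inside protein-coding genes lay 1283 members (56.9%, interval 54.8% to 58.9%), against 52.4% of regions missing at P8, 50.6% of regions missing at P2 and 52.6% of regions called at all 3 ages. Regions called at P2 alone (55.8%) and at P8 alone (56.1%) had shares within the members' interval. Those called at P5 alone stood at 49.8%. The annotation used gives gene starts and ends but not exons, so exonic and intronic members were not told apart. A coding gene lay within 100 kb of 92.8% of members and of 94.1% of regions called at all 3 ages. Of the members, 12.4% were over 50 kb from one. That share was 10.3% in regions called at all 3 ages, 18.3% in regions missing at P8 and 23.0% in those missing at P2. Chromosome X held 31 members (1.37%, interval 0.970% to 1.94%), and 1.68% of regions called at all 3 ages lay there.

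Promoter windows, from 250 bases before to 50 after a start, were available for 27025 genes. Of the members, 236 touched 268 of these windows, of 251 genes. Median GC content of the windows was 59.3%, against 57.7% for windows of regions missing at P8, 50.7% for those missing at P2, 62.3% for regions called at all 3 ages and 52.7% over all 32851 windows. The median window held 13 CpG dinucleotides, against 12, 6, 22 and 7 in the same order.

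A GC box (GGGCGG), which binds factors of the Sp family, was present on either strand in 50.4% of the members' windows (44.4% to 56.3%). The share was 47.6% in windows of regions missing at P8, 25.2% in those missing at P2, 68.7% at regions called at all 3 ages and 35.7% over all windows. CCAAT was present in 30.6% of the members' windows and 37.4% of all windows, TATAAA in 7.09% and 13.6%, and the E-box CANNTG in 70.5% and 72.3%. An AP-1 site (TGANTCA) was in 8.58% and 7.81%, and a CRE (TGACGTCA) in 3.36% and 1.79%. Of these 6 motifs, the members' interval lay wholly above the share in all windows only for the GC box and wholly below it for CCAAT and TATAAA. Windows of regions missing at P8 had similar shares of both, with 30.1% for CCAAT and 8.95% for TATAAA. The shares were 37.0% and 14.1% for regions missing at P2, and 39.0% and 5.70% for regions called at all 3 ages. Matches to different motifs can share bases.

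Members did not pile up beside one another. Of the 2256, 171 had another member as the next region on the chromosome (7.58%, interval 6.56% to 8.75%), while 6.77% of other regions had a member there, and the longest run was 3. Assigned to the nearest coding gene within 100 kb, the members fell on 1816 of the 15820 genes that had regions. Of these genes, 1578 had 1 member, 202 had 2 and 36 had 3 or more. Genes with a member mostly kept another call at P5: 1655 had a region called at that age and 161 had none.

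Tbc1d1, which regulates small GTPases in glucose uptake, had the most members, 5 of its 24 regions, with lower percentiles from 2.26 to 28.3. Dab2ip, a Ras GTPase-activating protein, had 4 of 20 regions and Tmcc3 4 of 26. Insig1, a regulator of sterol synthesis, had 3 members among 6 regions, at 15787, 34006 and 76030 bp from the gene. Sv2c, a synaptic vesicle protein, had 3 of 7, and Rara, the retinoic acid receptor alpha gene, had 3 of 10, all inside the gene. Gnpda1 had 3 of 6, Gfod1 3 of 11, Oxr1 3 of 11 and Pkdcc 3 of 11. The strongest of these was the Gnpda1 member 12 bp from the gene end, with percentiles of 83.2 and 80.2 and a P5 peak at 119 bp.

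Over genes, 207 of the 14314 with regions called at P2 and at P8 had none at P5. The comparable counts were 517 of 14624 for genes with none at P8 and 149 of 14256 for genes with none at P2. Among genes with none at P5, Hoxa13, Bhlhe23, Il12rb1, Slc7a7, Ttc30a2, Fasl and Scube2 had 2 members each. Mpnd, Nudt5, H1f4, Uty, Ddx3y and Uba1y had a single region each, the member described above. A P5 peak beside such a region, as at Mpnd, was assigned to a neighbouring gene.

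Gene lists for cochlear cell types, other tissues and signalling were then read against the 6.37% of regions with a coding gene within 100 kb, called at P2 and P8, that were not called at P5 (2094 of 32849). Of the 25 lists, 20 had a higher share and 4 had an interval wholly above 6.37%. These were Hox genes, Schwann cell and satellite glia genes, endothelial and pericyte genes, and thyroid hormone response genes. These shares rest on small counts, and each interval was read again under 9 alternatives against the share over all genes in the same alternative. It stayed wholly above for Hox genes in 7, Schwann cell genes in 6, endothelial genes in 7 and thyroid hormone genes in 4. The alternatives reuse the regions by which these 4 lists were picked, so these counts are not separate support. For Hox genes, the count was 4 of 12 in all 7. With lists of equal length, where the share over all genes was 6.03%, the endothelial interval began at 4.73% and the thyroid hormone interval at 5.00%. In the upper 50% of both lists, the endothelial and thyroid hormone intervals stayed above on 1 missing region each. These were 1 of 16, by Erg, and 1 of 37, by Klf9, against 0.244% over all genes. The median lower percentile was 4.47 for the Hox members, 8.18 for the Schwann cell, 12.8 for the endothelial and 12.1 for the thyroid hormone members, and 12.4 for all members with a gene. These medians cover members only. The ranks of all regions of a list called at P2 and P8 were not compared, so the lists are not shown to be matched in rank. With only P2 and P8 peaks at an IDR of at most 0.01, the share over all genes was 2.74%.

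Hox genes, which set position along the body axis, had 4 members among 12 regions called at P2 and P8 (33.3%, interval 13.8% to 60.9%). These were 2 by Hoxa13, with percentiles of 37.5 and 36.0 at P2 and P8 for the first and 16.3 and 4.47 for the second, 1 by Hoxb9 (19.5 and 4.47) and 1 in Hoxb6 (47.2 and 4.47). These 4 lay between 15241 and 34853 bp from the nearest P5 peak. The share missing at P8 was the same, with 4 of the 12 Hox regions called at P2 and P5 (33.3%). Of the 8 called at P5 and P8, 0 were missing at P2. With an IDR of at most 0.01, 0 of 7 Hox regions were missing at P5, which allows a share of up to 42.9%. A region by Hoxb8 was called at all 3 ages, with percentiles of 68.2, 63.2 and 50.8 in age order, as was one by Hoxa9 (72.5, 66.8 and 67.6).

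Schwann cell and satellite glia genes had 7 members among 40 regions (17.5%, interval 8.75% to 31.9%), while 8.33% of 36 of their regions were missing at P8 and 5.71% of 35 at P2. A member at the Mbp gene, which encodes myelin basic protein, lay 24 bp from a gene end with percentiles of 63.6 and 24.6. A second, inside Mbp, had 44.8 and 5.58. Erbb3, the neuregulin receptor of these glia, had a member with percentiles of 10.2 and 64.1 and a P5 peak 197 bp away. Members by Pou3f1 (56.8 and 21.1) and Foxd3 (24.6 and 8.18), both transcription factors, lay 86469 and 83258 bp from those genes. Members by Pmp22 (48.8 and 7.31), a myelin protein, and S100b (5.00 and 22.7), a calcium-binding protein, completed the list. With an IDR of at most 0.01, 1 of 31 regions was missing at P5 (3.23%).

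Endothelial and pericyte genes had 8 members among 51 regions (15.7%, interval 8.17% to 28.0%), and the same number were missing at P8. The highest lay 10497 bp from Erg, an endothelial transcription factor, with percentiles of 54.9 and 59.2, and a P5 peak was 388 bp away. A member at chr8:104022681-104023436 was assigned to Cdh5, the endothelial cadherin, at 78554 bp, with 44.4 and 37.6. Members lay near the ends of both VEGF receptor genes on the list, at 590 bp in Flt1 (29.8 and 20.6) and at 628 bp in Kdr (43.5 and 14.9), 25637 and 96560 bp from the nearest P5 peak. The others were by Kcnj8, Notch3, Pecam1 and Cspg4, with lower percentiles from 0.221 to 10.6. With an IDR of at most 0.01, 3 of 35 were missing (8.57%).

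Thyroid hormone response genes had 9 members among 73 regions (12.3%, interval 6.62% to 21.8%). The shares at the other ages were similar, with 13.5% of 74 of their regions missing at P8 and 11.1% of 72 at P2. The hormone acts on cochlear maturation through the receptors Thra and Thrb, which had 1 member each (60.6 and 13.5, and 5.10 and 2.30), the latter with a P5 peak at 240 bp. The corepressor gene Ncor1 had 2 members, with lower percentiles of 16.1 and 12.1, and the partner receptor gene Rxra had 2, with 10.1 and 0.776. Another was the Klf9 member described above, which the glucocorticoid list also held. At an IDR of at most 0.01, 2 of 59 were missing (3.39%). Glucocorticoid response genes had 5 members of 57 (8.77%), among them the strong Nr3c1 and Klf9 regions and 2 in Nr3c2, the mineralocorticoid receptor gene.

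**Figure D5:**
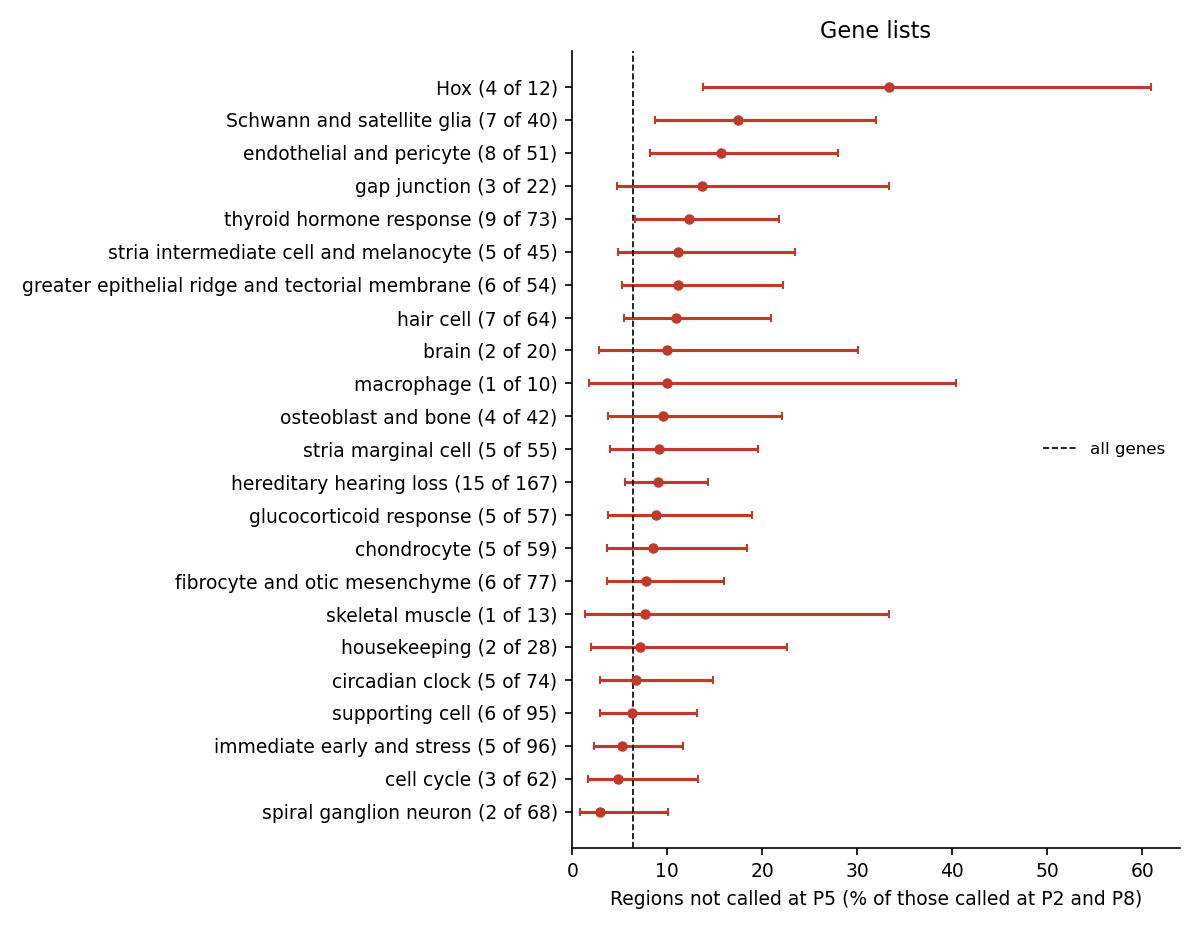
Points give, for 23 gene lists with at least 10 regions called at P2 and P8, the share of those regions not called at P5, with 95% Wilson intervals and the counts in brackets; the dashed line is the 6.37% over all genes. Hox, Schwann cell, endothelial and thyroid hormone lists have intervals right of the line. Against the share over all genes in the same alternative, this held in 7, 6, 7 and 4 of 9 alternatives, in that order. It did not hold at an IDR of at most 0.01 for the Hox, Schwann cell and thyroid hormone lists. With lists of equal length it did not hold for the endothelial and thyroid hormone lists. The alternatives reuse the regions by which the lists were picked, so these counts are not separate support.

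Lists for the sensory epithelium and the stria vascularis had intervals that held the background of 6.37%. Hair cell genes had 7 members among 64 regions (10.9%). The highest were in Otof, which encodes the synaptic protein otoferlin (40.4 and 49.2), and 23 bp from an end of Espn, which encodes an actin-bundling protein of stereocilia (31.9 and 32.3). Supporting cell genes had 6 of 95 (6.32%), among them a member 2 bp from an end of Fgfr3, a fibroblast growth factor receptor (46.6 and 14.2). The list for the tectorial membrane and the greater epithelial ridge had 6 of 54 (11.1%). Marginal cell genes of the stria had 5 of 55 (9.09%) and intermediate cell genes 5 of 45 (11.1%). The intermediate cell list included a member inside Mitf, the melanocyte transcription factor, at percentiles of 53.6 and 55.6 and 64494 bp from a P5 peak.

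Spiral ganglion neuron genes had 2 members of 68 (2.94%, interval 0.810% to 10.1%), by Rbfox3 and Ntrk2. Fibrocyte and otic mesenchyme genes had 6 of 77 (7.79%). Hereditary hearing loss genes had 15 of 167 (8.98%), which include the Otof, Espn and Mitf members and 1 in Coch, the cochlin gene of fibrocytes, 144 bp from a gene end (34.1 and 44.0). Lists for other tissues that a dissection can hold gave shares on either side of these values. Osteoblast and bone genes had 4 of 42 (9.52%), chondrocyte genes 5 of 59 (8.47%), skeletal muscle genes 1 of 13 (7.69%), macrophage genes 1 of 10 (10.0%) and brain genes 2 of 20 (10.0%). Erythroid genes had 2 of 9, 1 of them by Tal1, and neutrophil genes 0 of 3, too few to set a limit. Housekeeping genes had 2 of 28 (7.14%), immediate early and stress genes 5 of 96 (5.21%), circadian clock genes 5 of 74 (6.76%) and cell cycle genes 3 of 62 (4.84%). The part of tissue make-up in any of these shares was not tested.

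Gjb2, which encodes a connexin of the gap junctions between supporting cells, had 1 member within 100 kb. It lay at chr14:57084012-57084511, 14340 bp from the gene and outside it, with percentiles of 13.9 at P2 and 25.7 at P8, and the nearest P5 peak was 19930 bp away. The region at the start of Gjb2 (chr14:57104442-57104940) was called at all 3 ages, with percentiles of 75.4, 63.1 and 70.5. Gjb6, its neighbour, had no member, and its gene-end region at chr14:57133177-57133675 was called at P8 alone (5.30). Among the gap junction genes as a whole, 3 of 22 regions were members (13.6%, interval 4.75% to 33.3%). The other members were in Gja5 (45.7 and 30.9) and by Gja4 (48.1 and 10.4), genes of vascular connexins.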

How the data were processed

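ATAC-seq was run on 10 animals of 3 ages. Per the submitters' processing notes, the tools include MACS2 2.1.0, Subread 1.4.6-p3 and Trimmomatic 0.33, with build mm10. The animals behind the 2 inputs of a list, read filters and any transposase shift are not given in the sources used here. What ranks the deposited peaks is a −log10 p-value, and the authors also give −log10 of each peak's IDR, which reaches 0.05 at most. Both were used only within a list. Regions, distances, percentiles and shares were computed from them with Python 3.11.15, pandas 2.3.3 and numpy 2.4.6. List starts were taken as 0-based and raised by 1 for printing, a choice that the files do not settle. Merging and distances were tested on simulated data.

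Genes came from a RefSeq table of GRCm38.p6, the build of mm10, without strand or exons. The members and the gene lists were chosen with earlier results of these data known. Named genes were, by rule, the 10 highest members with no P5 peak within 500 bp, the 10 highest within 1 kb of a gene end, the 10 genes with most members, up to 2 members per list, the regions by Gjb2 and Gjb6, and the members at the edge of the rule. Further list members, genes without a P5 call, X-linked relatives and Hox regions were chosen after their values were seen. Alternatives were other overlaps, list limits, distances and gene assignments. Leaving out members overlapped by full-width P5 input peaks was chosen after seeing the data. No test was run, since each age has 1 list. Some named regions are not reported here.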

Additional observations from a re-analysis of the deposited data

How the results depend on the processing

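With an IDR of at most 0.01 for P2 and P8 peaks, 803 members remained, on 719 genes and 123 promoter windows. Of these, 8.97% had a P5 peak within 500 bp, 70.1% stood in the lower 50% of both lists, 22.8% lay within 1 kb of a gene end and 3.74% beside another member. With only the upper 50% of both lists there were 47 members, on 43 genes and 13 windows. The same shares were then 42.6% near a P5 peak, 44.7% near a gene end, 53.2% inside a coding gene and 4.26% beside another member. Chromosome X held 0% of the 47, which allows up to 6.38% (the share that 3 counts would make). Joining peaks only at an overlap of 250 bp gave 12.7% near a P5 peak, 80.3% in the lower 50% of both lists and 22.1% near a gene end. That rule also keeps regions which a P5 peak overlaps by less. Joining peaks up to 100 bp apart gave 4.38% near a P5 peak. Lists of equal length (43878 peaks) gave 81.1% and 22.4% for rank and gene ends. Leaving out members under full-width P5 input peaks, an alternative chosen after seeing the data, left 2189 members and 3.02% near a P5 peak. Gene ends within 500 bp or 2 kb took 14.3% and 27.3% of members. Where no construction of the alternative sets the change, the cause was not tested. The interval of a gene list lost its place above the share over all genes, taken in the same alternative, for Hox genes with an IDR of at most 0.01 and in the upper 50% (0 regions missing in both). For Schwann cell genes it did so in those alternatives and with genes within 50 kb (lower bound 6.26% against 6.31%). Endothelial genes lost it at an overlap of 250 bp (5.73% against 6.82%) and at equal length (4.73% against 6.03%). Thyroid hormone genes lost it at 250 bp (6.72% against 6.82%), without a P5 peak within 500 bp (5.74% against 6.03%), at an IDR of at most 0.01 (0.935% against 2.74%), at equal length (5.00% against 6.03%) and by nearest gene end (5.32% against 6.30%).

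Of 126 recomputed values, which include those for chromosome Y and 5 gene lists, 88 stayed within the interval of the first value, or within 1.5 times a count, and 38 moved. The share near a P5 peak could not be given for members defined by having none, nor the share in the lower 50% for the upper 50%. Leaving out an animal was not possible, since each age has 1 list, and no paired analysis was possible because the lists carry no replicates. Unknown depth limits every absence: a P5 signal below the threshold was not detectable in these lists.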
